A study of Mus musculus with 9 samples.

Results

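The genes described here are 7 members of the Ms4a gene cluster on mouse chromosome 19: Ms4a4a, Ms4a4b, Ms4a4c, Ms4a6b, Ms4a6c, Ms4a6d and Ms4a7. They were chosen by name, with earlier results of these data known, out of 54532 genes in the deposited table. The list was meant as the Ms4a genes described in macrophages, although Ms4a4b is known chiefly from T cells. They lie within 284 kb, at chr19:11321039-11604849 on the mouse build GRCm38. RNA sequencing was done on whole atherosclerotic aortas of 9 Apoe-/- mice, which lack apolipoprotein E and clear remnant lipoproteins poorly. The mice were aged 6 to 8 weeks when the diets began, and the regimen lasted 24 weeks. There were 3 aortas from mice fed chow (CD), 3 from mice on a high fat diet (HFD), and 3 from mice on that diet that were also injected intraperitoneally with ammonium iron(III) citrate (HFD_IO). The loss of Apoe is common to all groups, so no group is free of that predisposition. Neither iron with chow nor a vehicle injection is among the groups.

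MS4A proteins are small membrane proteins that cross the membrane several times and sit beside signalling receptors at the cell surface or in endosomes. The family is best known for MS4A1, the B cell antigen CD20, and MS4A2, the beta chain of the IgE receptor on mast cells. The members on the macrophage side of the family are used as markers of tissue and lesion macrophages. MS4A4A is known to act with the beta-glucan receptor dectin-1, the product of Clec7a, and human variants near MS4A4A and MS4A6A are linked to the level of soluble TREM2.

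In these aortas the 5 members that could be tested were all called higher on the high fat diet, as were 21.8% of all genes tested. With iron added, Ms4a6d and Ms4a7 were called higher again, at 64.9 ± 14.7 and 26.8 ± 6.06 FPKM (mean ± SD, n = 3). Ms4a4a, Ms4a6c and Ms4a6b were not called at that step, where 14.1% of all genes were called higher. FPKM counts fragments per unit of gene length and of depth. Levels set side by side between genes thus depend on the length listed for each gene. Ms4a4b and Ms4a4c were near the floor in most libraries.

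The start regions of the members are shown because genes of 1 cluster moved in different ways. The windows are the 250 bases before a RefSeq transcript start (GRCm38.p6), in the direction of transcription. Entries matched 6 of the 7 members, with 2 starts for Ms4a7; Ms4a6d had no entry. Capitals mark matches, on either strand, to 3 motifs: AGGAAGT, a form of the ETS site read by PU.1, the factor that specifies macrophages; TGANTCA, the AP-1 site; and CACGTG, the E-box. Below are the windows of Ms4a7, which rose with iron, and of Ms4a4a, which did not pass the test there.
Ms4a7, chr19:11336147-11336396, minus strand: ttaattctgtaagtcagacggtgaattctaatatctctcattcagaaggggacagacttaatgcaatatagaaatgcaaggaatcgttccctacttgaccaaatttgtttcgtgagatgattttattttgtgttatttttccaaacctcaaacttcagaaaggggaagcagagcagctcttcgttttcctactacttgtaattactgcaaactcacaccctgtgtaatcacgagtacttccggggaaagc
Ms4a4a, chr19:11375238-11375487, plus strand: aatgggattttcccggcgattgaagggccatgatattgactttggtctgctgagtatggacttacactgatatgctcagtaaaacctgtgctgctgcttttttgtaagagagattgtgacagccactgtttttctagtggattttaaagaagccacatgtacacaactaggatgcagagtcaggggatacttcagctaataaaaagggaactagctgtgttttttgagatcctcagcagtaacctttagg

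Neither of these windows holds any of the 3 motifs. The window at the other Ms4a7 start holds an AP-1 match 81 bases before it, and that of Ms4a6c holds an ETS match 17 bases before the start. Over all 32851 RefSeq windows of this length, the ETS motif was in 7.69%, the AP-1 motif in 6.75% and the E-box in 6.02%. Of the 7 member windows 2 held the ETS motif, 1 the AP-1 motif and 0 the E-box, and no matches overlapped each other. A match is a run of letters, and nothing here measured binding.

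Ms4a6c and Ms4a6b share much of their start region. Over an alignment of 180 columns their windows were identical in 148 (82.2%), and the windows of Ms4a4c and Ms4a4b in 117 of 133 (88.0%). The shared stretch around the ETS motif, in capitals, is shown for the first pair.
Ms4a6c, chr19:11469341-11469367: tttctgatatAGGAAGTacaggcacag
Ms4a6b, chr19:11518463-11518489: tttctgatatAGGAAGTacaggcacaa

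The pair also shares transcript sequence. Of the 50-base stretches of the annotated Ms4a6c transcripts (GENCODE M21), 5.85% also occur in Ms4a6b, and 7.73% of those of Ms4a4c occur in Ms4a4b. The figure with any other Ms4a gene was 0.0% for Ms4a7 and Ms4a4a and 2.31% for Ms4a6d. Ms4a6c further shares 49.6% of its stretches with BE692007, a transcript annotated in its place on the opposite strand. Whether the counting used strand is not known here, and reads of the 2 genes may be split between them. BE692007 was listed at 0.220 to 1.10 FPKM over the 9 libraries and did not pass the filter on low values. Ms4a6b likewise overlaps the antisense gene Gm19261, which had at most 4 reads in a library, and Ms4a4c overlaps the pseudogene Gm5692.

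Depth was even: the reads per library, recovered from the FPKM values, ranged from 16660963 to 18308450, and 1 read in a gene of 1 kb was worth 0.0541 to 0.0615 FPKM. Apoe, the disrupted gene, was listed at 10.9 to 14.5 FPKM on chow, 9.73 to 15.1 on the high fat diet and 17.5 to 21.9 with iron, a value that cannot tell disrupted transcripts from intact ones. Summed levels of markers of other cell types shifted between the groups. Of 8 smooth muscle genes the summed level was 5369 to 5994 FPKM on chow, 6919 to 8078 on the high fat diet and 2475 to 4223 with iron. The sum of 8 endothelial genes was 421 to 612, 147 to 263 and 296 to 336 FPKM. The sum of 8 white adipocyte genes was 441 to 1008, 1051 to 2805 and 263 to 1691 FPKM, and of 9 skeletal muscle genes 4.40 to 10.2, 6.40 to 92.4 and 4.43 to 14.9 FPKM. The sum of 7 mast cell genes was 19.6 to 26.2, 47.6 to 81.5 and 21.1 to 50.3 FPKM. Of the 6 mast cell genes tested, 4 were called higher in HFD against CD (median 1.23) and 3 lower in HFD_IO against HFD (median -0.77), but none at the second step without HFD_2, HFD_3, HFD_IO_1 or HFD_IO_3. The part of these cells in the results below was not tested. In whole tissue, fewer cells of a type and less RNA per cell cannot be told apart.

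Ms4a6d (ENSMUSG00000024679, chr19:11586604-11604849, minus strand) had the highest FPKM of the members in each of the 9 libraries. The gene is a macrophage member whose product is known to pair with the complement receptor VSIG4. Libraries CD_1 to CD_3 held 4.54, 3.17 and 3.17 FPKM. Libraries HFD_1 to HFD_3 held 25.1, 23.5 and 17.0 FPKM, and HFD_IO_1 to HFD_IO_3 held 70.6, 76.0 and 48.2. The groups do not overlap at either step: the lowest HFD library lies above every CD library, and the lowest HFD_IO library above every HFD library. The share of all genes without such overlap in FPKM is not given here, for this or the other members. The recovered reads behind these values were 97 to 145, 479 to 762 and 1476 to 2298. Ms4a7 had more reads in each library: 122 to 212, 559 to 1152 and 1583 to 2482. Its listed length is 4453 bases, against 1735 for Ms4a6d, so their order in FPKM rests on these lengths. On the log2(FPKM + 1) scale, used for all changes below, Ms4a6d rose by 2.30 in HFD against CD (standard error, SE, 0.21, adjusted p = 0.000351). It rose by a further 1.52 in HFD_IO against HFD (SE 0.21, adjusted p = 0.00209). Its mean FPKM was 6.03 times the CD mean in HFD and 17.9 times in HFD_IO.

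Ms4a7 (ENSMUSG00000024672, chr19:11321039-11336146, minus strand), at the other end of the cluster, is a marker of mature and border-associated macrophages. It was at 2.59, 1.77 and 1.50 FPKM in the CD libraries, 14.8, 14.4 and 7.73 in HFD, and 28.4, 32.0 and 20.1 in HFD_IO. The groups again do not overlap, and in HFD as in HFD_IO the third library is the lowest. Ms4a7 rose by 2.14 in HFD against CD (SE 0.26, adjusted p = 0.000848) and by 1.09 in HFD_IO against HFD (SE 0.26, adjusted p = 0.0148). The second of these calls was lost without HFD_IO_2, with a change of 0.95 (adjusted p = 0.0527).

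Ms4a4a (ENSMUSG00000101389, chr19:11375523-11392790, plus strand) encodes the member that associates with dectin-1. It was at 2.60, 2.92 and 2.89 FPKM in CD, 7.86, 8.80 and 5.89 in HFD, and 8.28, 7.20 and 5.35 in HFD_IO, from 40 to 128 reads. All HFD libraries lie above all CD libraries, and the HFD and HFD_IO libraries overlap. The gene rose by 1.15 in HFD against CD (SE 0.17, adjusted p = 0.00154). Between HFD_IO and HFD the difference was -0.10 (SE 0.17, adjusted p = 0.673).

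Ms4a6c (ENSMUSG00000079419, chr19:11469366-11482192, plus strand) is known from monocytes and macrophages. Its level was 2.04, 1.49 and 2.14 FPKM in CD, 6.27, 6.42 and 4.17 in HFD, and 5.75, 6.49 and 4.42 in HFD_IO. It shows the same arrangement as Ms4a4a, with CD below and the other groups overlapping. Ms4a6c rose by 1.18 in HFD against CD (SE 0.18, adjusted p = 0.00177), and the difference between HFD_IO and HFD was -0.01 (SE 0.18, adjusted p = 0.979).

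Ms4a6b (ENSMUSG00000024677, chr19:11516512-11531256, plus strand) is known from T cells as well as myeloid cells. It was at 3.71, 1.30 and 1.86 FPKM in CD, 3.45, 6.64 and 5.16 in HFD, and 2.79, 5.47 and 3.11 in HFD_IO. CD_1 overlaps the HFD group. It rose by 0.92 in HFD against CD (SE 0.31, adjusted p = 0.0419), a call that was lost without CD_2 (adjusted p = 0.138), CD_3 (0.114), HFD_2 (0.133), HFD_3 (0.098) or HFD_IO_3 (0.0551). Between HFD_IO and HFD the difference was -0.35 (SE 0.31, adjusted p = 0.417). The mean log2 level of 15 T cell genes was 2.33 in CD_1 against 1.50 and 0.93 in CD_2 and CD_3. It was 1.35, 2.39 and 1.09 in the HFD libraries and 1.55, 1.99 and 1.13 in HFD_IO, so the libraries highest in T cell genes are also those highest in Ms4a6b in each group. CD_1, HFD_2 and HFD_IO_2 are also the highest of their groups in the monocyte (2.14, 2.92 and 2.65) and NK cell lists (0.80, 0.81 and 0.83). The same holds for the dendritic cell (1.14, 1.71 and 1.59) and type I interferon lists (2.72, 2.68 and 2.75). The match is thus not particular to T cells, and the part of any of these cells in the level of Ms4a6b was not tested.

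**Figure D1:**
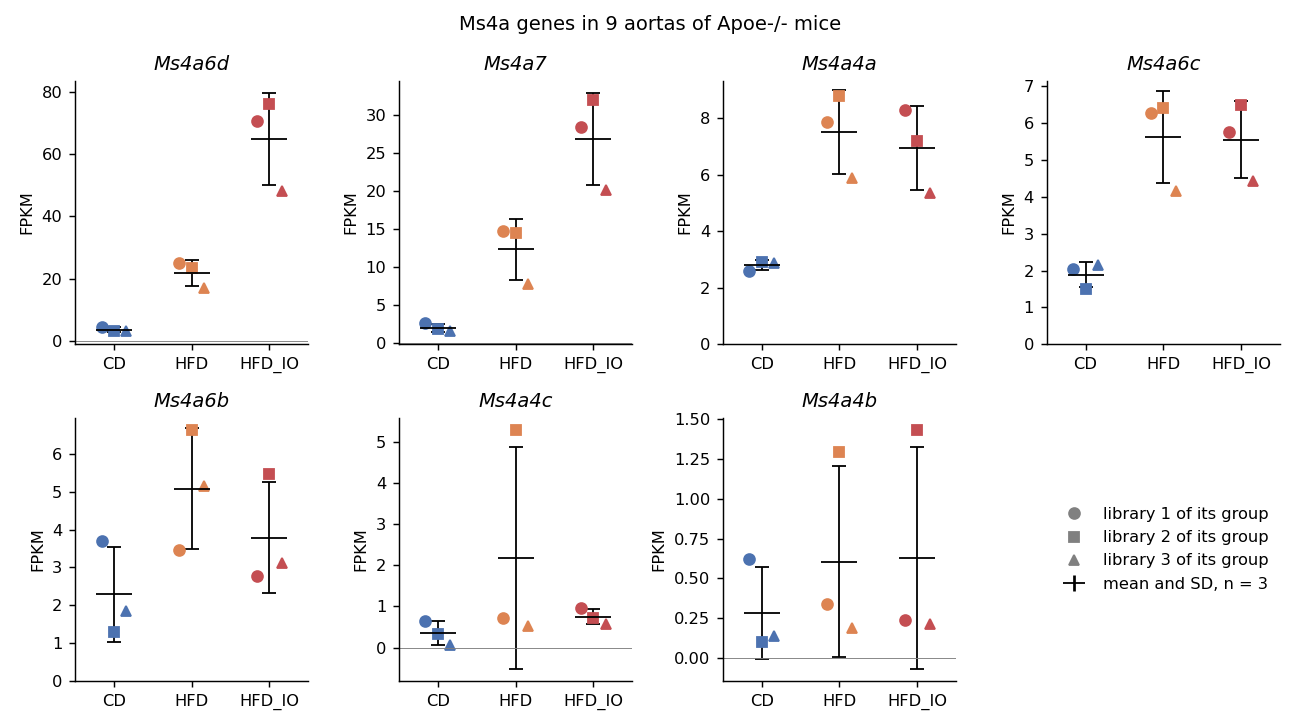
Levels of the 7 Ms4a genes in FPKM (y axis, its own scale in each panel) in the CD, HFD and HFD_IO aortas (x axis); each symbol is 1 library and the bars are the mean and SD of 3. Ms4a6d and Ms4a7 climb from CD to HFD to HFD_IO, Ms4a4a and Ms4a6c are above CD in HFD and HFD_IO alike, and 1 HFD library holds the high value of Ms4a4c (5.29 FPKM).

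Ms4a4c and Ms4a4b did not pass the filter on low values (at least 1 FPKM in at least 3 libraries) and are given by their values. Ms4a4c (ENSMUSG00000024675, chr19:11404770-11427246, plus strand) was at 0.652, 0.324 and 0.0627 FPKM in CD, 0.718, 5.29 and 0.527 in HFD, and 0.957, 0.721 and 0.582 in HFD_IO. HFD_2 stands apart, with 155 reads against 2 to 31 in the other libraries. The same library held 106 FPKM over 8 B cell genes, against 3.27 to 16.5 in the other 8 libraries. Cd79a, a chain of the B cell receptor, was at 43.0 FPKM in HFD_2 and at most 6.29 elsewhere. Ms4a1 (CD20) was at 6.07 FPKM in HFD_2 and at most 0.806 elsewhere. The part of B cells in the level of Ms4a4c was not tested.

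Ms4a4b (ENSMUSG00000056290, chr19:11443553-11463549, plus strand) is known chiefly from T cells, where its product associates with the co-stimulatory receptor GITR, so its label as a macrophage gene is not a given. It was at 0.619, 0.0967 and 0.135 FPKM in CD, 0.336, 1.29 and 0.187 in HFD, and 0.236, 1.44 and 0.215 in HFD_IO. Its high libraries, CD_1, HFD_2 and HFD_IO_2, are those with the highest T cell gene level in each group. They are also the highest of their groups in the monocyte, NK cell, dendritic cell and type I interferon lists. The part of any of these cells in the level of Ms4a4b was not tested. When all genes entered the fit without a filter, Ms4a4c differed by 0.94 in HFD against CD (adjusted p = 0.251) and Ms4a4b by 0.28 (adjusted p = 0.626).

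The counts over the members read as follows against all 13883 genes tested. In HFD against CD, 5 of the 5 tested members were called higher, where 21.8% of all genes were called higher and 17.6% lower; the median change was 1.18, beside 0.06 over all genes. In HFD_IO against HFD, 2 of 5 were called higher, where 14.1% of all genes were called higher and 14.5% lower; the median was -0.01, beside 0.0 over all genes. Without HFD_IO_2 it was 1 of 5. In HFD_IO against CD, 4 of 5 were called higher, where 17.5% of all genes were called higher and 15.0% lower; the median was 1.17, beside -0.01. The changes there were 3.82 for Ms4a6d, 3.23 for Ms4a7, 1.17 for Ms4a6c and 1.05 for Ms4a4a. Ms4a6b was not called (0.57, adjusted p = 0.196), except without CD_1 (0.86, adjusted p = 0.0484). The libraries of every group serve in more than 1 comparison, so the comparisons are not independent. Rescaling to TPM moved the median of all genes in HFD against CD from 0.058 to -0.295, with 1018 genes higher and 4948 lower in place of 3030 and 2440. Of the 5 tested members, Ms4a6b lost its call there (0.75, adjusted p = 0.104) and the other 4 kept theirs. The split became 2373 higher and 1160 lower in HFD_IO against HFD (1956 and 2013 as deposited), and 1528 and 3800 in HFD_IO against CD (2427 and 2089), with the member calls as before.

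Levels among the members spread apart from group to group. In CD the members lay close together: Ms4a6d at 3.63 ± 0.795 FPKM was above all Ms4a4a libraries (2.80 ± 0.175), while Ms4a4a, Ms4a6b (2.29 ± 1.26), Ms4a7 (1.95 ± 0.565) and Ms4a6c (1.89 ± 0.350) each overlapped the next in this order. In HFD the order was Ms4a6d (21.9 ± 4.29), Ms4a7 (12.3 ± 3.97), Ms4a4a (7.52 ± 1.49), Ms4a6c (5.62 ± 1.26) and Ms4a6b (5.08 ± 1.60), and each from Ms4a7 on overlapped its neighbour. In HFD_IO Ms4a6d (64.9 ± 14.7), Ms4a7 (26.8 ± 6.06) and the remaining 3 were clear of each other, and Ms4a4a (6.95 ± 1.48), Ms4a6c (5.55 ± 1.05) and Ms4a6b (3.79 ± 1.47) overlapped.

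The make-up of the summed signal of the 7 genes follows from this. Other Ms4a genes are not in the sum. Ms4a4d, within the same span, averaged 8.22 FPKM on chow, above each of the 7, and Ms4a14 averaged 5.08 FPKM with iron. The shares are thus not shares of the whole cluster, and they depend on the length listed for each gene. The 7 genes summed to 13.2 ± 3.11 FPKM on chow, 55.1 ± 13.2 on the high fat diet and 109 ± 24.4 with iron. Ms4a6d and Ms4a7, summed after their values were seen, made up 42.6, 44.6 and 39.7% of it in the CD libraries. They made up 68.1, 57.1 and 60.8% in HFD and 84.6, 83.5 and 83.3% in HFD_IO. Ms4a6d alone went from 27.5 ± 0.93% in CD to 40.0 ± 4.05% in HFD and 59.3 ± 0.92% in HFD_IO, and Ms4a7 was at 14.7 ± 1.70%, 22.0 ± 3.16% and 24.5 ± 0.27%. Ms4a4a had 22.1 ± 5.81%, 13.7 ± 0.67% and 6.39 ± 0.76%. The shares of the HFD_IO libraries lie within 2 percentage points of each other for the pair, although their sums range from 82.0 to 129 FPKM.

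**Figure D2:**
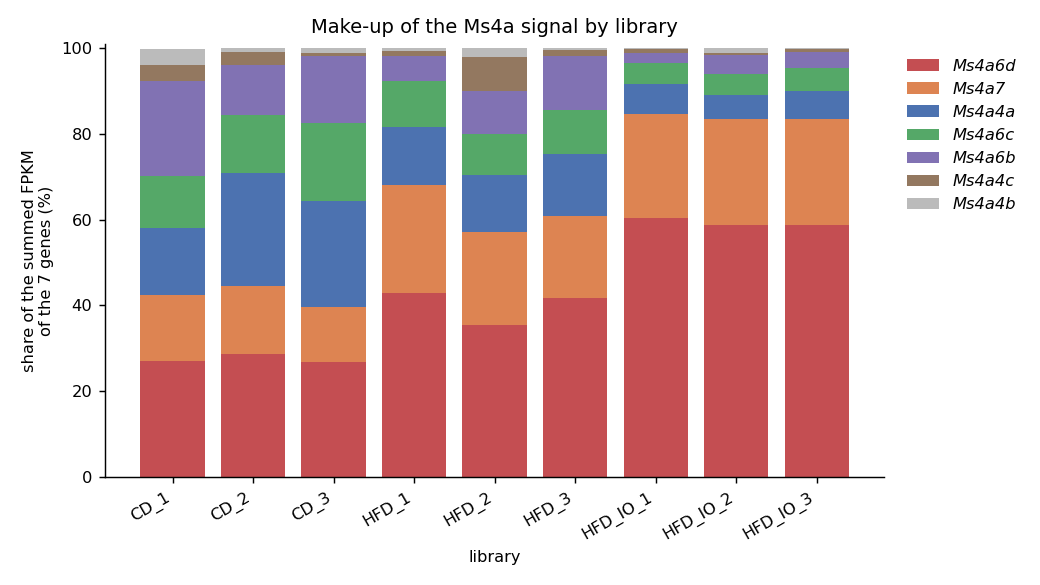
Share of the summed FPKM of the 7 genes (y axis, percent) taken by each gene in each of the 9 libraries (x axis). Ms4a6d and Ms4a7 together fill 39.7 to 44.6% of the CD bars and 83.3 to 84.6% of the HFD_IO bars.

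Macrophage markers were then used as a yardstick. Of 15 such genes, 11 were called higher in HFD against CD (median 1.29), 12 in HFD_IO against HFD (median 0.82) and 13 in HFD_IO against CD (median 2.03), and none lower. After rescaling to TPM or quantile normalization, the first of these counts was 10 higher and 1 lower. Their summed level was 673 to 739 FPKM on chow, 3097 to 5075 on the high fat diet and 4978 to 8484 with iron. Cd68, a lysosomal glycoprotein of macrophages, rose by 2.42 and then 1.58, and Adgre1, which encodes F4/80, rose by 1.46 with iron. Cd163, the scavenger receptor for haemoglobin, did not pass in any comparison (0.07, -0.25 and -0.18). All 15 markers were above 0 in every library, so macrophage RNA was measured in each aorta.

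Each tested member was expressed relative to the mean log2 level of these 15 markers in the same library. For Ms4a6d this difference was -1.91 ± 0.21 (SD, n = 3) in CD, -0.87 ± 0.20 in HFD and -0.20 ± 0.27 in HFD_IO, so it was higher relative to the markers by 1.04 and 0.67, without overlap between groups. Of all genes tested, 0.836% stood higher without overlap in HFD against CD and 1.2% in HFD_IO against HFD. Ms4a7 was higher by 0.88 in HFD, without overlap; its 0.24 in HFD_IO against HFD was within overlapping groups (exact permutation p = 0.5, two-sided, 3 against 3). With Adgre1 and Csf1r alone as the yardstick that difference was -0.04, and the 0.67 of Ms4a6d was 0.39. The result depends on the markers averaged. Lyz2 (3.34) and Cd68 (2.42) rose more with the diet than Ms4a6d (2.30). Cx3cr1 (1.86) and Cd68 (1.58) rose more with iron than Ms4a6d (1.52), and the other markers changed less. Ms4a6d thus did not rise more than Cd68 at either step.

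The other 3 tested members stood lower relative to the markers in HFD_IO. Ms4a4a stood at -2.18 ± 0.09 in CD, -2.29 ± 0.23 in HFD and -3.24 ± 0.35 in HFD_IO, Ms4a6c at -2.58 ± 0.18, -2.65 ± 0.23 and -3.51 ± 0.18, and Ms4a6b at -2.45 ± 0.51, -2.79 ± 0.48 and -4.00 ± 0.14. In HFD_IO against HFD the differences were -0.95, -0.86 and -1.20, with no overlap between the groups. The markers themselves were higher by 0.85 on average at that step, so a gene without any change would differ by -0.85. Of all genes tested, 79.4% stood lower without overlap there, so the non-overlap is not particular to these members. In HFD against CD they were -0.11, -0.08 and -0.34, with overlapping groups (exact permutation p = 0.6, 0.6 and 0.5), and the signs for Ms4a4a and Ms4a6c turned under other scalings. Where the groups did not overlap, the exact two-sided permutation p was 0.1, the smallest that 3 libraries against 3 allow, and 0.136 after adjustment over the 15 tests, so no such difference can pass 0.05 by this test.

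**Figure D3:**
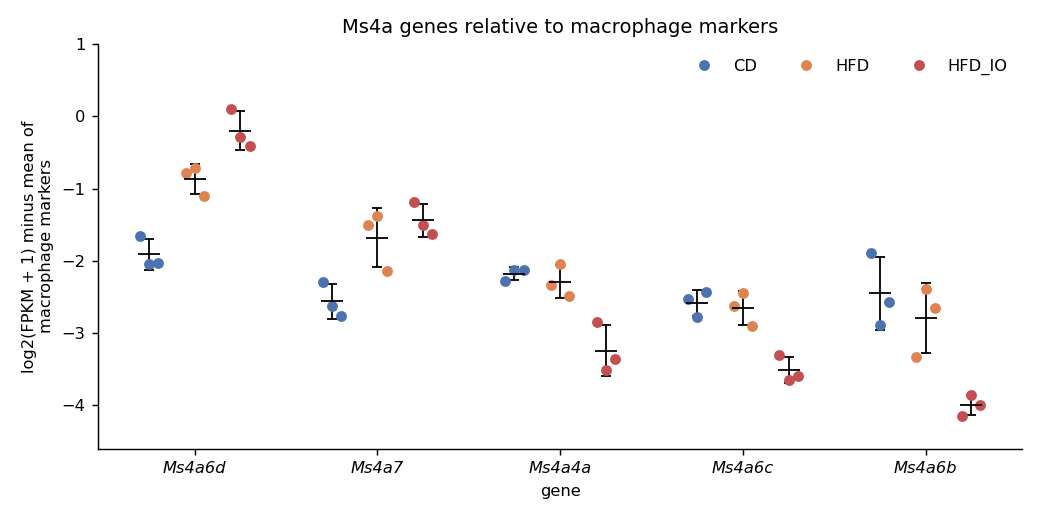
Level of each tested Ms4a gene relative to macrophage markers (y axis, log2(FPKM + 1) minus the mean of 15 markers in the same library); points are libraries, coloured by group, and bars are the mean and SD of 3. The Ms4a6d points are highest in HFD_IO, while Ms4a4a, Ms4a6c and Ms4a6b are lowest in HFD_IO, between -4.14 and -2.85.

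The receptors and adaptors that MS4A proteins are known to act with moved as follows. Of 8 such genes 6 were called higher in HFD against CD, 3 in HFD_IO against HFD and 6 in HFD_IO against CD, with medians of 1.73, 0.74 and 2.41 and none lower. Trem2, the lipid-sensing receptor, was at 2.62 ± 0.310, 37.8 ± 10.9 and 76.9 ± 12.2 FPKM, and rose by 3.38 and then 1.04 (adjusted p = 7.91e-05 and 0.00863). Clec7a rose by 2.53 with the diet (adjusted p = 0.00255) and differed by 0.93 with iron (adjusted p = 0.126). Tyrobp, the adaptor of TREM2, rose by 2.86 and then differed by 0.56 (adjusted p = 0.114). That step passed with the length trend removed (0.84, adjusted p = 0.0379) and after quantile normalization (0.89, adjusted p = 0.0442).

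Fcer1g, the Fc receptor gamma chain, rose by 1.39 with iron, and Syk, the kinase downstream of dectin-1 and of Fc receptors, rose by 0.92. The Syk call was lost without HFD_IO_2 (0.83, adjusted p = 0.056). Vsig4 rose by 1.93 with the diet and differed by -0.30 with iron (adjusted p = 0.38). Its level was 0.958 ± 0.0762, 6.75 ± 2.69 and 5.18 ± 1.39 FPKM, while that of Ms4a6d kept rising. Tnfrsf18, which encodes GITR, and Kit, the stem cell factor receptor, passed in no comparison.

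Among 14 other genes of the MS4A family, 5 passed the filter: 4 were called higher in HFD against CD, 2 higher and 2 lower in HFD_IO against HFD, and 3 higher in HFD_IO against CD. After rescaling to TPM the diet count was 2 higher. Without HFD_3 or HFD_IO_2 the iron count was 1 higher and 1 lower, and without CD_2, CD_3, HFD_2, HFD_IO_1 or HFD_IO_3 it was 2 higher and 1 lower. Ms4a14 (chr19:11301249-11314454, minus strand), the gene next to Ms4a7, was at 0.776, 0.307 and 0.270 FPKM on chow, 1.20, 0.750 and 0.802 on the high fat diet, and 5.64, 4.88 and 4.72 with iron. The HFD_IO libraries lie far above the other 6. The gene reached 1 FPKM only there and in HFD_1, so it passed the filter only through the group where it is high. With no filter on low values its change with iron was 1.67 (adjusted p = 0.00319). In the filtered fit Ms4a14 rose by 1.67 with iron (SE 0.16, adjusted p = 0.000684), and its 0.41 in HFD against CD did not pass (adjusted p = 0.0711). That difference passed without CD_1 (0.57, adjusted p = 0.0129), at a pseudocount of 0.1 (0.97, adjusted p = 0.0471), after quantile normalization (0.46, adjusted p = 0.0434) and with voom on the recovered reads (1.16, adjusted p = 0.0431).

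Ms4a4d (chr19:11536801-11558467, plus strand), between Ms4a6b and Ms4a6d, went the other way. It averaged 8.22 ± 1.96 FPKM on chow, 12.5 ± 2.28 on the high fat diet and 6.27 ± 1.31 with iron, and fell by 0.89 with iron (SE 0.19, adjusted p = 0.0108). Its 0.56 in HFD against CD (adjusted p = 0.0477) was lost without CD_2 (0.158), CD_3 (0.104), HFD_1 (0.0544), HFD_2 (0.0781), HFD_3 (0.149) or HFD_IO_3 (0.0655). It was also lost under 7 other settings, among them the length trend removed (0.28, adjusted p = 0.229) and TPM (0.21, adjusted p = 0.356), and with TPM Ms4a4d fell in HFD_IO against CD (-0.59, adjusted p = 0.0257). Ms4a8a, known from alternatively activated macrophages, rose by 0.91 with the diet (adjusted p = 0.00464, and 0.0139 with no filter on low values). It passed the filter only through the HFD group, where it is high. It fell by 0.55 with iron (adjusted p = 0.0445), a call lost on leaving out any of 7 libraries, all but CD_1 and HFD_1, with adjusted p from 0.0573 to 0.153. It was lost under 7 other settings as well, with the change at -0.33 with the length trend removed (adjusted p = 0.16), -0.89 at a pseudocount of 0.1 (0.0695) and -0.95 with voom (0.0559). Mast cell genes were likewise called higher with the diet and lower with iron, by the counts given above, as were genes of other lists. Of 8 white adipocyte genes 3 were called higher and then 2 lower (medians 1.055 and -1.291). Of 11 resident macrophage genes 5 were called higher, then 3 lower and 1 higher (medians 0.574 and -0.323). Of 8 smooth muscle genes 1 was called higher and then 6 lower (medians 0.266 and -0.998). Of 10 monocyte genes 3 were called higher and then 1 lower (medians 0.775 and -0.146). The medians of B cell (1.734 and -1.499) and skeletal muscle genes (1.504 and -1.329) turned too, without a call with iron. Those of the macrophage markers were 1.289 and 0.822. The part of any of these cells in the levels of Ms4a4d and Ms4a8a was not tested.

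Tmem176a and Tmem176b, relatives on another chromosome that encode cation channels of endosomes in dendritic cells and macrophages, rose by 0.71 and 0.62 with the diet. Tmem176a rose by 0.45 with iron (adjusted p = 0.018), lost without HFD_3 (0.0527) or HFD_IO_2 (0.0639), and Tmem176b differed by 0.31 (adjusted p = 0.0915). The latter passed with the length trend removed (0.47, adjusted p = 0.015), after quantile normalization (0.53, 0.0106) and with TPM (0.47, 0.0189), while the diet call of Tmem176b was lost with TPM (0.24, adjusted p = 0.124). Ms4a2, Ms4a3, Ms4a10 and Ms4a15 never exceeded 7 reads, and Ms4a5, Ms4a12, Ms4a13 and Ms4a18 had none.

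**Figure D4:**
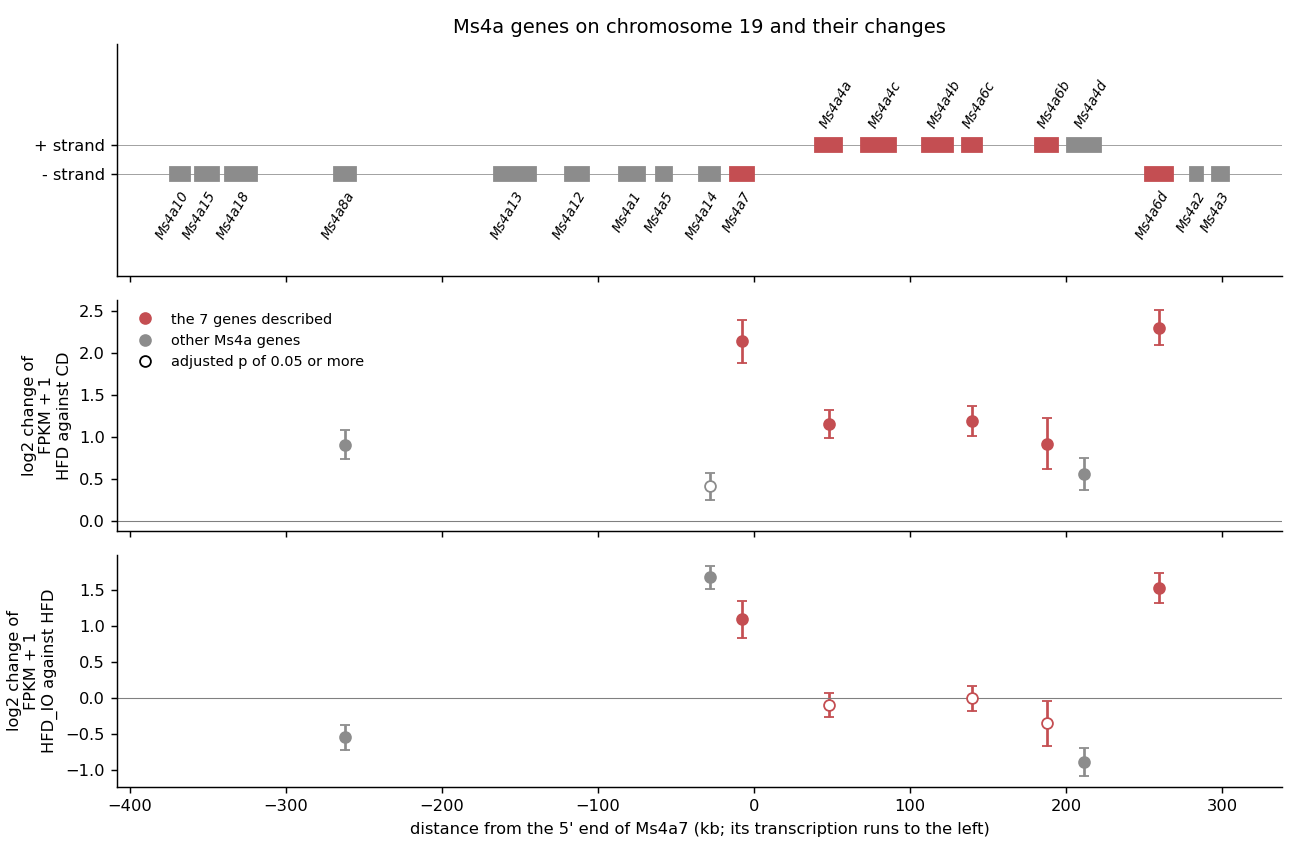
Map of the Ms4a genes by distance from the 5′ end of Ms4a7 (x axis, kb), with strands above and, below, the log2 change of FPKM + 1 for HFD against CD and for HFD_IO against HFD (y axes; bars are standard errors, open circles an adjusted p of 0.05 or more). With iron, Ms4a14 and Ms4a7 on 1 side and Ms4a6d on the other rose, while Ms4a4d between them fell by 0.89.

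The changes with iron differed along the cluster. The genes that rose were Ms4a14 and Ms4a7, which are neighbours on the minus strand, and Ms4a6d, on the same strand beyond the 5 members of the plus strand. Ms4a14 was tested only because of its HFD_IO values. The tested plus-strand genes, Ms4a4a, Ms4a6c, Ms4a6b and Ms4a4d, had changes of -0.10, -0.01, -0.35 and -0.89, and Ms4a8a, on the minus strand, had -0.55. Of 54 other genes within 500 kb of the cluster 11 were tested. In HFD against CD 2 were called higher, in HFD_IO against HFD 2 higher and 1 lower, and in HFD_IO against CD 2 higher and 2 lower; the shares over all genes are given above. Over the single libraries left out, these counts were 1 to 2 higher and 0 to 1 lower, 2 to 3 higher and 0 to 1 lower, and 2 to 3 higher and 0 to 2 lower. Mrpl16 lost its diet call without CD_2, CD_3, HFD_1 or HFD_3, and Tmem109 lost its fall with iron without any library but CD_1 and HFD_IO_3. Both genes lower in HFD_IO against CD, Osbp and Cd6, lost their calls without CD_2, HFD_IO_1 or HFD_IO_2. Slc15a3, a lysosomal peptide transporter at chr19:10839727-10859362, was at 1.88 ± 0.401, 10.2 ± 4.09 and 28.7 ± 5.07 FPKM and rose by 1.90 and then 1.46 (adjusted p = 0.00133 and 0.00559). Stx3, a syntaxin of membrane fusion, rose by 0.64 with iron (adjusted p = 0.00403).

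Further macrophage states and relatives were described by lists of known markers, and Cd163, Mrc1, Vsig4 and Kit are each in 2 of the lists used here. Of 11 genes of resident vascular macrophages, 5 were called higher with the diet (2 without HFD_3, 3 without CD_2 and 1 with TPM). With iron 1 was higher and 3 lower: Cbr2, a carbonyl reductase, fell by 1.36, Timd4, a phosphatidylserine receptor, fell by 1.34 and Cd209f, a C-type lectin, fell by 1.15. Cbr2 averaged 220 FPKM on chow, 329 on the high fat diet and 127 with iron, where Adgre1 averaged 8.06 on chow. Of 8 smooth muscle genes 6 were called lower with iron (median -0.998). The part of smooth muscle or other wall cells in the levels of this list was not tested. Mrc1, the mannose receptor, rose by 0.65 (adjusted p = 0.017), but it did not pass when HFD_IO_1 or HFD_IO_2 was left out. Of 10 monocyte genes 3 rose with the diet, and with iron 1 fell, F10 by 0.54; without HFD_2 it was 2 higher, without HFD_IO_1 it was 1 higher and 1 lower, and without HFD_3, HFD_IO_2 or HFD_IO_3 the F10 call was lost.

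Ccr2, the chemokine receptor of inflammatory monocytes, differed by 0.55 with the diet (adjusted p = 0.115) and by -0.03 with iron (adjusted p = 0.944). Of 6 dendritic cell genes tested, 3 were called higher and 2 lower with the diet, and 2 higher and 1 lower with iron. Over the single libraries left out, these were 2 to 3 higher and 1 to 2 lower, and 1 to 3 higher and 1 lower. Itgax, which encodes CD11c and is also carried by lesion macrophages, rose by 1.96 and then 1.66. The lectin gene Cd209a rose by 1.18 and then fell by 0.75. Zbtb46, a transcription factor of conventional dendritic cells, fell by 0.49 with the diet (adjusted p = 0.00934) and rose by 0.38 with iron (adjusted p = 0.0357). Of 8 endothelial genes 7 were called lower with the diet (median -1.303) and 3 higher with iron (median 0.459). The part of endothelial cells in the level of Zbtb46 was not tested. Clec9a, a receptor of cross-presenting dendritic cells, fell by 0.55 with the diet (adjusted p = 0.0283), and the chemokine receptor gene Ccr7 rose by 1.16 (adjusted p = 0.0394). Of 13 type I interferon genes tested, 4 were called higher and 2 lower with the diet. Leaving out CD_2, CD_3, HFD_2 or HFD_3 left 1 higher and 2 lower, and TPM gave 1 higher and 3 lower. The mean log2 level of the list of 15 was 2.26 to 2.72 in CD, 2.32 to 2.68 in HFD and 2.35 to 2.75 in HFD_IO.

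The genes whose pattern over the 9 libraries lay nearest to each member were found among 12078 protein-coding genes, by the root mean square difference of log2(FPKM + 1) after centring each gene. For Ms4a6d these were Cd84, a receptor of the SLAM family, at 0.16, and Plek, which encodes pleckstrin, and Cd68, both at 0.18. For Ms4a7 they were Fcgr4, an Fc receptor gene (0.15), Ctsd, a lysosomal protease gene (0.17), and Il1rn, which encodes the interleukin 1 receptor antagonist (0.18). Cd84 was at 1.29 ± 0.459, 10.3 ± 4.06 and 29.9 ± 4.72 FPKM over the 3 groups.

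For Ms4a4a and Ms4a6c the nearest gene was the same, AI413582, at 0.12 and 0.11. It averaged 5.44 ± 0.484 FPKM on chow, 14.0 ± 1.12 on the high fat diet and 12.9 ± 1.78 with iron. Next came Rilpl2 (0.12) and Gm2a, a lysosomal lipid-transfer protein (0.13), for Ms4a4a, and B3gnt7, a glycosyltransferase (0.14), and Cd63, a tetraspanin of endosomes (0.14), for Ms4a6c. For Ms4a6b they were Gmfg (0.17), Serpinb1a (0.18) and Itgb7, an integrin subunit of lymphocytes (0.21). Among the members themselves Ms4a4a and Ms4a6c lay nearest (0.14), then Ms4a6d and Ms4a7 (0.27), and Ms4a6b and Ms4a6d were farthest apart (1.38). These are descriptions over 9 libraries that share group structure.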

How the data were processed

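The assay was RNA sequencing of 9 aortas, from total RNA purified on Qiagen columns and an NEBNext library kit, per the labels' protocols. The submitters' processing notes name HISAT2 and the build hg38, which is human; the gene identifiers and coordinates in the table are mouse, GRCm38. The sources used here do not name the counting tool or its strand setting.

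The authors deposited FPKM values, 1 column per library, with gene lengths. Columns could be matched to groups but not to single labelled aortas, so libraries are named by their columns. Multiplied by gene length, 100% of values were whole reads within a tolerance of 0.05, which gave the reads per gene. The libraries of a group differed by more than sampling noise (chi-square per degree of freedom 5.97 to 51.0). Each sample is labelled as 1 aorta, but nothing says whether any were paired or pooled. The p-values thus measure the spread between these samples, which may be partly technical.

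Changes were fitted on log2(FPKM + 1) by limma 3.58.1 (R 4.3.3), letting the variance follow the mean, for 13883 genes with at least 1 FPKM in at least 3 libraries. All 9 libraries entered 1 model, p was adjusted over all genes of a comparison (Benjamini-Hochberg), and the threshold was 0.05. The addition of 1 understates changes of low genes. The calculation was tested on simulated data. Levels relative to macrophage markers were compared by exact permutation tests in scipy 1.17.1, adjusted over 15 tests. Alternatives were other pseudocounts, filters, scalings, a length trend, voom on the recovered reads, other reference genes and leaving out each library.

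The members and the 15 gene lists beside them were chosen with earlier results of these data known. Named are the 7 members, the other MS4A genes, at most 3 called genes with the largest change per list and comparison, at most 3 called genes within 500 kb, the 3 protein-coding genes nearest in pattern to each member, and Apoe. Cd163, Ccr2, Cd79a, Csf1r, Clec9a, Mrpl16, Tmem109, Osbp, Cd6, the overlapping genes and the partners that did not pass are outside this rule and were named after their values were seen. Promoter and transcript sequences came from RefSeq (GRCm38.p6) and GENCODE M21. Part of the comparison of start regions is not reported here.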

Additional observations from a re-analysis of the deposited data

How the results depend on the processing

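The alternatives left 219 values of the main comparisons on the same side, reversed 17 and moved 1; of the single-gene changes of the 5 tested members 265 kept direction and call, 10 lost a call, 1 gained one and 9 reversed. Calls of other genes that turned are given beside them in the report. Members called in HFD_IO against HFD numbered 1 to 2 over the single libraries left out. Relative to macrophage markers, HFD against CD turned for Ms4a4a to 0.035 at a pseudocount of 0.1, 0.003 with TPM, 0.11 after quantile normalization, 0.22 with Adgre1 and Csf1r as the reference and 1.11 with the T cell genes, and for Ms4a6c to 0.17, 0.12, 0.17, 0.25 and 1.14; leaving out single libraries gave Ms4a6c -0.184 to 0.046. The T cell reference, which asks another question, also gave 0.88 for Ms4a6b, 1.05, 0.57 and 1.18 for Ms4a4a, Ms4a6b and Ms4a6c in HFD_IO against CD, and 0.04 for Ms4a6c in HFD_IO against HFD. With Adgre1 and Csf1r Ms4a7 was at -0.044 in HFD_IO against HFD. The small differences of Ms4a4a in HFD_IO against HFD became 0.18 without the length trend and 0.039 with TPM, and ran from -0.247 to 0.05 over the libraries left out (0.007 without HFD_2); those of Ms4a6c became 0.19, 0.14, 0.069 without HFD_1, 0.083 without HFD_2 and 0.122 without HFD_IO_3, with a range of -0.177 to 0.122. For Ms4a6b in HFD against CD the call was also lost with the length trend removed (adjusted p = 0.0547), with no filter (0.0997) and with only the 6 libraries of the contrast (0.0534). The causes were not tested. No paired analysis was possible because the labels number the aortas 1 to 9 and no number is shared between groups. Depth limits Ms4a4a, with 40 to 128 reads, and Ms4a4b and Ms4a4c.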
